A study of Mus musculus with 6 samples.

Results

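Genes of the T cell receptor signalling machinery were described in mouse CD4 T cells of 3 populations and 2 genotypes. The list holds 47 genes: the CD3 chains, the coreceptor and costimulatory receptors, the proximal kinases, the adaptors, the calcium and MAPK arms, phosphatases, lipid kinases and ubiquitin ligases. Where a gene had several probe sets, the one that was brightest on average over the 6 arrays stood for it. Of the 47 genes, 45 had a probe set with that single gene symbol, among 18193 genes in the series. Lck and Mapk3 had none in the annotation used here and were not analysed here. All 45 were above the floor, a signal of 47.6, on all 6 arrays, so none passed the floor only through the group in which it was high. The choice of probe set did use the signals of all 6 arrays. Most of these were not from activated cells, so it can favour probe sets that are bright in the other populations.

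When a T cell meets its antigen, Src family kinases phosphorylate the tails of the CD3 chains, the kinase ZAP70 docks there, and the adaptors LAT and LCP2 gather the enzymes that open the downstream branches. Phospholipase C gamma then releases calcium, which acts through calcineurin and NFAT factors, and makes diacylglycerol, which opens the Ras and MAPK branch and the protein kinase C branch towards NF-kB. Phosphatases, diacylglycerol kinases, ubiquitin ligases and the kinase CSK hold the pathway back.

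The series examines the loss of Furin, a protein-cutting enzyme of the secretory pathway, in T cells of C57BL/6 mice of 10 to 11 weeks. Furin cKO mice were CD4 cre Fur flox/flox, and control mice, labelled WT, carried the same floxed alleles without Cre (Fur flox/flox). The Cd4 promoter that drives the Cre acts from thymocyte development on and is not limited to CD4 T cells. Activated cells were sorted as CD4+ CD62L+ CD44- naive cells and then cultured for 2 days on plate-bound anti-CD3 and anti-CD28, each at 5 µg/ml. Regulatory cells (CD4+CD25+FoxP3+) and memory cells (CD4+ CD62L- CD44+) were measured fresh after sorting. Each of the 6 combinations of population and genotype was 1 array, and the labels do not say how many mice gave the RNA. The values are array signals on a linear scale, and their number limits the precision. In bulk RNA, fewer cells of a type and less RNA per cell cannot be told apart.

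Some markers did not follow the labels. Foxp3, the factor that defines regulatory T cells, read 33.8 and 50.4 on the regulatory arrays and 1116 and 1358 on the memory arrays, Furin cKO before WT, whereas the regulatory markers Ikzf2 (15968 and 13901 against 8213 and 9419) and Il2ra (3702 and 4277 against 627 and 1190.3) were brighter on the regulatory arrays. Furin itself read 468 and 516 in activated, 410.0 and 547 in regulatory and 2203 and 647 in memory cells, so that the array labelled Furin cKO of memory cells was the brightest. Whether this probe set lies in the deleted part is not stated in the labels. Populations and genotypes are named here by their labels, and in memory cells Furin cKO means the array labelled so. Markers of B cells, myeloid cells and granulocytes summed to at most 135.4, 289.9 and 59.2 on the activated arrays, where 0 to 1 of 5, 1 to 3 of 7 and 0 to 1 of 4 of them were above the floor. On the 4 fresh arrays the same sums ran between 1727 and 3657, 1534 and 13280, and 1155 and 6385, with 4 to 5, 6 to 7 and 3 to 4 above the floor. Plasma cell markers summed to 303.9 and 365.3 in activated, 7327 and 15410.4 in regulatory and 18235.5 and 3227 in memory cells. The part of these cells in the population differences was not tested. On the activated arrays 49.4% to 49.8% of probe sets reached the floor, against 62.6% to 67.4% on the others. The beta-actin 3' to 5' ratio was 1.22 to 1.24 against 1.35 to 1.93. A bioB control probe set read 757.5 and 656 on the activated, 1808.5 and 2123 on the regulatory and 2974 and 4145 on the memory arrays. Its relation to the population differences was not tested. Population, culture and these array measures cannot be told apart. Population differences were also computed with both regulatory or both memory arrays left out. These still set cultured cells against fresh cells, so they cannot separate population from culture.

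Activated cells gave lower signals for most of the signalling machinery than either fresh population. Against memory cells, 33 of 45 genes fell and 3 rose. Against regulatory cells, 26 fell and 5 rose. The tests come from a linear model in limma with population and genotype as factors, fitted to all 15808 genes above the floor on some array, with Benjamini-Hochberg adjustment and a threshold of 0.05. Each population has 2 arrays, so the spread behind each p is how far a population difference varied between the genotypes. Among all genes tested, 27% were lower and 17.4% higher in activated than in memory cells, and 26.5% lower and 18.1% higher than in regulatory cells. Among the 9446 genes above the floor on all arrays, the lower shares were 32.5% and 31.5%. The listed genes stood at 73.3% and 57.8%. Both comparisons use the same activated arrays. Where a pair of folds stands without its populations below, memory is the first and regulatory the second.

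The median log2 fold of the 45 genes was -0.95 for activated over memory and -0.76 for activated over regulatory. The medians of all genes tested were -0.21 and -0.23, and those of the genes above the floor on all arrays -0.13 and -0.10. With quantile normalization the medians of all genes were 0.00 and the listed genes kept medians of -0.93 and -0.76. In that setting 20.3% of all genes were lower and 21.6% higher against memory, with 29 listed genes lower and 2 higher. Lower floors brought the medians closer together. With no floor, over 18193 genes, the medians of all genes were -0.60 and -0.68, beside -0.95 and -0.76 for the listed genes. With a floor at the 20th percentile the medians of all genes were -0.49 and -0.52. Both activated arrays lay below the other 4 arrays for 35 of the 45 genes and above them for 5, against 32.3% and 22.4% of all genes.

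Calls depended on the few arrays. Left out one at a time, the activated Furin cKO, activated WT, regulatory Furin cKO, regulatory WT, memory Furin cKO and memory WT arrays left 14, 11, 17, 15, 23 and 20 genes lower against memory. The same order gave 12, 7, 0, 0, 25 and 24 genes lower against regulatory cells. Without either regulatory array no gene of the whole table passed in that comparison. Against memory, Cd3d, Cd3e, Cd3g, Sit1 and Nfatc2 passed with each of the 6 arrays left out, and Cd2, Txk and Nfatc3 in 5 of 6 settings, while Cd247, Cd4, Cd28 and Bcl10 passed in 0. The share of all genes called lower was also smaller in every setting with a single array left out. With both regulatory arrays left out 30 genes were lower against memory and 4 higher, beside 29.7% and 17.7% of all genes. With both memory arrays left out 28 were lower against regulatory cells and 5 higher, beside 32.9% and 20.8% of all genes.

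**Figure D1:**
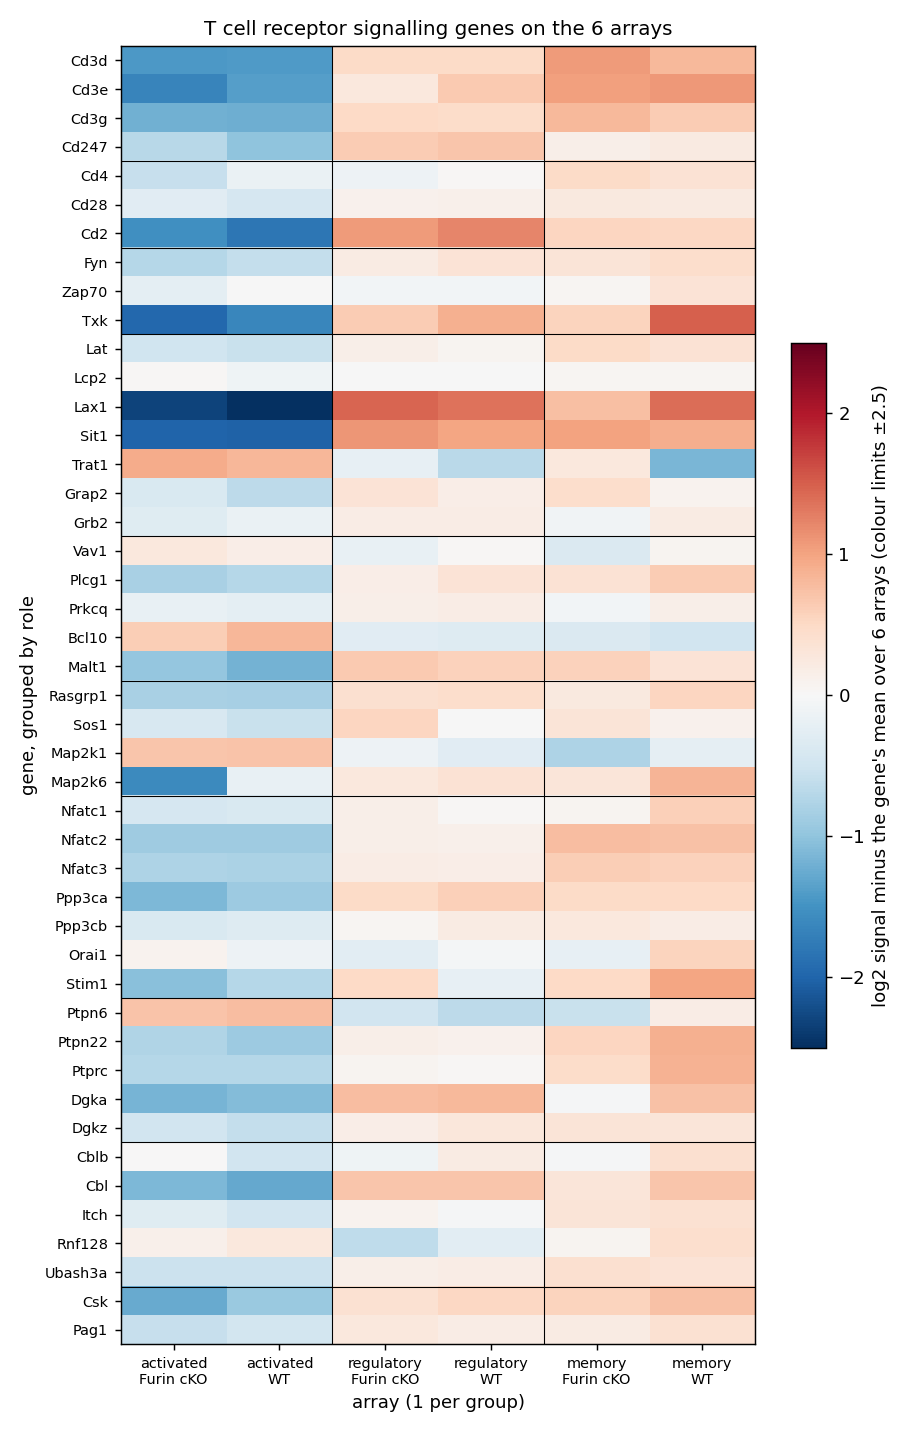
Heat map of the 45 genes (rows, grouped by role) on the 6 arrays (columns). Colour is the log2 signal minus the mean of that gene over the 6 arrays, with colours capped at 2.5 on either side. Most rows are blue in the activated columns; Trat1, Bcl10, Map2k1 and Ptpn6 are red there.

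The CD3 chains all fell. Cd3d, Cd3e and Cd3g, neighbouring genes on chromosome 9, encode the chains that pair with the receptor, and Cd247 encodes the zeta chain with its several signalling motifs. Cd3e read 1309.7 and 1599.8 on the activated arrays (Furin cKO and WT), 4974 and 6552 on the regulatory arrays and 8419 and 8712 on the memory arrays. The activated arrays did not overlap with the others. Its log2 fold was -2.56 (SE 0.16, adjusted p = 0.0020 in limma) against memory and -1.98 (SE 0.16, adjusted p = 0.0027) against regulatory cells.

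Cd3d gave 6852 and 6932 in activated, 25839.9 and 25987 in regulatory and 38862 and 32691 in memory cells, a 5.17-fold and a 3.76-fold lower level in activated cells than in memory and regulatory cells. Cd3g gave 5167 and 5133, 16904 and 16532, and then 21049 and 18647, 3.85-fold and 3.25-fold lower. Cd247 differed least of the chains, with 2444 and 1970.3 in activated cells, 6127 and 6405 in regulatory cells and 4398 and 4593 in memory cells. It was 2.05-fold lower than in memory cells and 2.85-fold lower than in regulatory cells. A further Cd247 probe set read 157 and 142 in activated cells against 4128 and 4040.1 in regulatory cells, a far larger difference from the same gene. Unlike the CD3 chains, the T cell surface receptor Cd5 read 15094 and 14649 in activated, 14214 and 15196 in regulatory and 12432 and 13125 in memory cells, and its 95% intervals for activated over memory (-0.15 to 0.59) and over regulatory (-0.36 to 0.39) included 0.

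Among the coreceptor and costimulatory receptors, Cd2, an adhesion receptor that strengthens T cell contacts, stood out. It read 3202 and 2664 in activated, 19472 and 21858 in regulatory and 13471 and 13412 in memory cells. That is 7.06-fold lower in activated than in regulatory and 4.60-fold lower than in memory cells (adjusted p = 0.0021 and 0.0024, limma). Cd4, the coreceptor that brings Lck to the complex, gave 1821 and 2425 in activated, 2474 and 2752 in regulatory and 3768 and 3488 in memory cells. It fell against memory (log2 fold -0.79, SE 0.18, adjusted p = 0.029), and against regulatory cells the interval ran between -0.81 and 0.19. Cd28, the main costimulatory receptor, read 5123 and 4646, 6721 and 6862, and 7398 and 7345, 1.51-fold lower than in memory cells (adjusted p = 0.030). Both of these calls ended when any single array was left out (adjusted p = 0.067 to 0.21 for Cd4 and 0.067 to 0.22 for Cd28), and Cd28 against memory also when both regulatory arrays were (adjusted p = 0.072).

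The kinases differed among themselves. Txk, a Tec family kinase of resting T cells, read 202 and 257 in activated cells against 1235 and 1466 in regulatory and 1169 and 2239.7 in memory cells. It was 7.11-fold lower than in memory cells and 5.91-fold lower than in regulatory cells (adjusted p = 0.0025 and 0.0030). Fyn, a Src family kinase, was 2.04-fold and 1.88-fold lower. Zap70, the kinase that carries the signal from the CD3 chains to the adaptors, read 3440.5 and 4032 in activated, 3844 and 3863 in regulatory and 4178 and 5169.6 in memory cells. Its arrays overlapped between activated and regulatory cells, and its log2 folds had intervals of -0.73 to 0.09 against memory and -0.46 to 0.36 against regulatory cells. With the mean of all 3 Zap70 probe sets it was lower against memory (log2 fold -0.71, adjusted p = 0.011). With single arrays left out its adjusted p against memory ran between 0.11 and 0.54.

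The adaptors held both the largest falls and the largest rise of the list. Lax1, a transmembrane adaptor that restrains lymphocyte signalling, read 82.6 and 65.5 in activated cells, just above the floor, against 1132 and 1054 in regulatory and 696 and 1089 in memory cells. The difference was 11.8-fold to memory and 14.8-fold to regulatory cells (adjusted p = 0.0025 and 0.0024). Sit1, another transmembrane adaptor with inhibitory motifs, read 271 and 267 in activated, 2329 and 2135 in regulatory and 2156 and 2032 in memory cells, with log2 folds of -2.96 and -3.05 (SE 0.13 each, adjusted p = 0.0018 each). For both genes the activated arrays lay far below all others.

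Trat1, an adaptor that associates with the receptor complex, went the other way. It read 7882 and 7313 in activated, 3584 and 2603 in regulatory and 4974 and 1873 in memory cells, 2.49-fold higher than in either (adjusted p = 0.043 each). The activated arrays lay above the other 4, but the rise did not pass with quantile normalization (adjusted p = 0.070 and 0.077) or with the mean of both probe sets (0.073 and 0.14). It was past the threshold in 1 of 6 settings with an array left out against memory and in 2 of 6 against regulatory cells. The other Trat1 probe set overlapped between populations, with 1628 and 2062 in activated against 1819 and 1378 in regulatory cells.

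Lat, the central adaptor of the pathway, read 7335 and 7079 in activated, 11479 and 10818 in regulatory and 14508 and 13318 in memory cells, and fell 1.93-fold against memory and 1.55-fold against regulatory cells. Lcp2, its partner, read between 8011 and 8988 on all 6 arrays. The intervals of its log2 folds were -0.47 to 0.28 against memory and -0.40 to 0.35 against regulatory cells. Grap2, which links Lat to Lcp2, was dim (122 to 261) and 1.72-fold lower against both populations. Grb2, which brings SOS to the complex, had log2 folds of -0.29 and -0.42 that did not pass (adjusted p = 0.20 and 0.089).

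**Figure D2:**
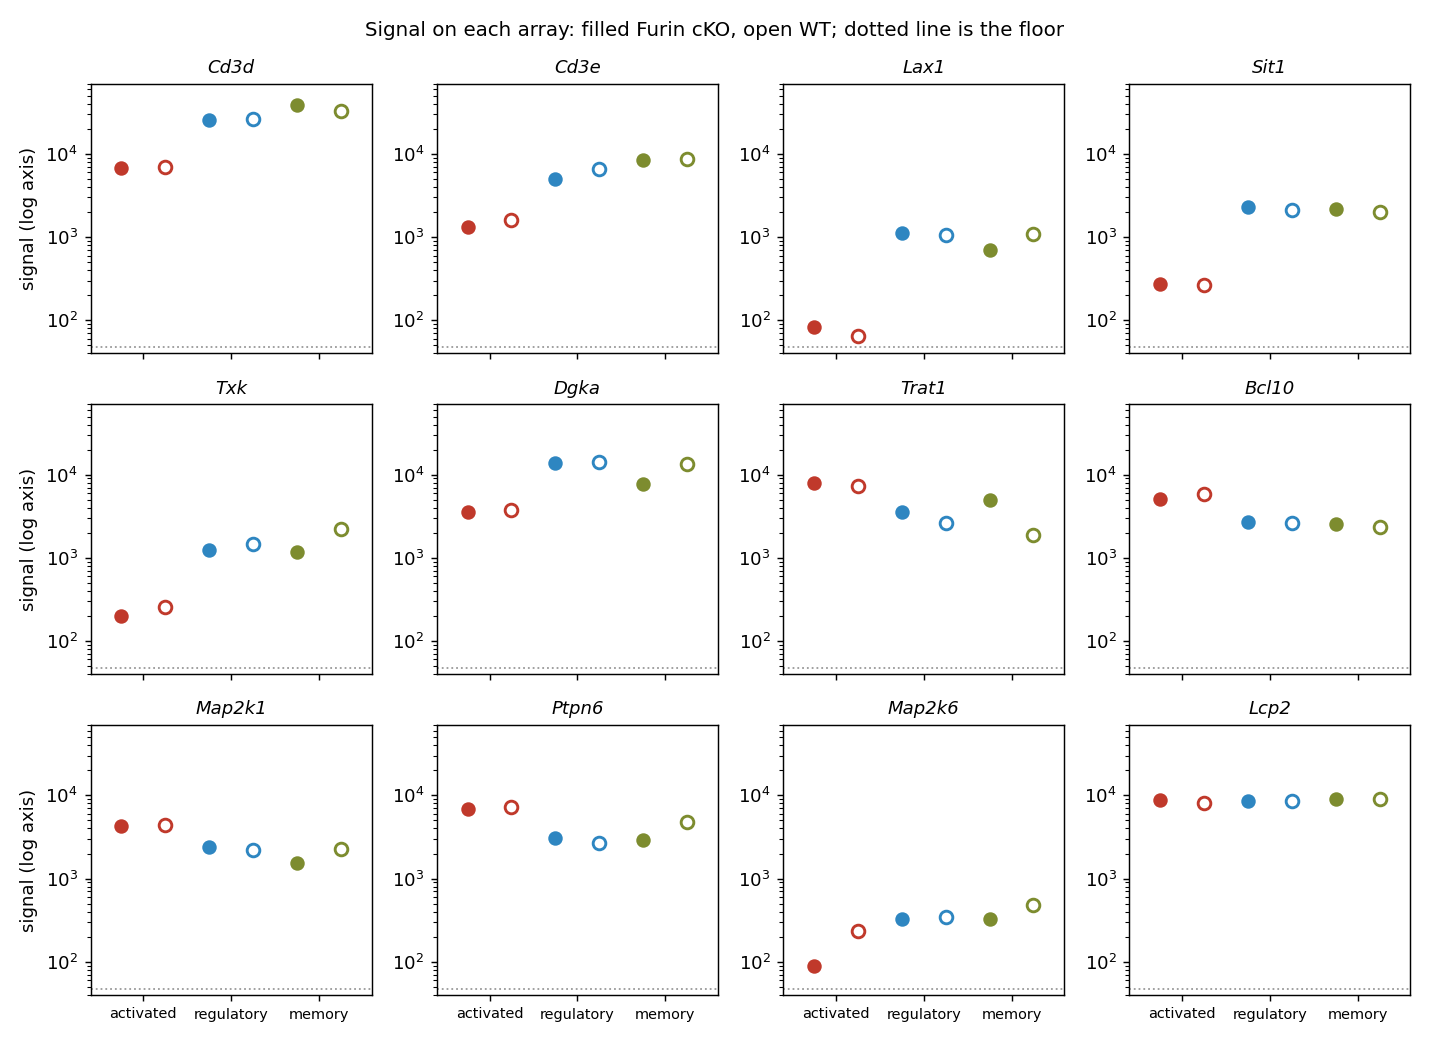
Signal on each array (log axis) for 12 of the genes, with Furin cKO arrays filled, WT arrays open and the floor dotted. The activated arrays are lowest for Cd3d, Cd3e, Lax1, Sit1, Txk and Dgka and highest for Trat1, Bcl10, Map2k1 and Ptpn6, while Lcp2 is level.

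The promoters of the genes with the 3 largest falls against memory and with the largest rise are shown, as the extremes among the genes called there. Each runs from 250 bases before to 50 bases after the transcription start (RefSeq, GRCm38.p6), on the minus strand in all 4 cases: Lax1 at chr1:133690059-133690358, Sit1 at chr4:43483660-43483959, Txk at chr5:72752728-72753027 and Trat1 at chr16:48772013-48772312. For Lax1 and Txk the first of 2 listed starts is given. Capitals mark matches on either strand to 5 motifs of T cell factors: ETS (AGGAAGT), RUNX (TGTGGTT), NFAT (GGAAAA), AP-1 (TGANTCA) and FOXO (GTAAACA).
Lax1: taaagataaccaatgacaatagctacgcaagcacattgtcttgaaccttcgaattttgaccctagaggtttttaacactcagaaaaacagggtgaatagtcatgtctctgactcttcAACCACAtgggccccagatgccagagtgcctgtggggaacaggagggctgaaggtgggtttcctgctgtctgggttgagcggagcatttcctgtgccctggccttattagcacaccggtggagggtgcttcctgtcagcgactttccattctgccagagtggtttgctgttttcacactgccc
Sit1: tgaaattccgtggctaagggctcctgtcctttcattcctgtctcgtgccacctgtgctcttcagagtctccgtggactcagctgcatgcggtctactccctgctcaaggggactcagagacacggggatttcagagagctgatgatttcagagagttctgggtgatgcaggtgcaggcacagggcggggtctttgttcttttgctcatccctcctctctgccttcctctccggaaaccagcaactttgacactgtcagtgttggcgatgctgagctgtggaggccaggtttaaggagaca
Txk: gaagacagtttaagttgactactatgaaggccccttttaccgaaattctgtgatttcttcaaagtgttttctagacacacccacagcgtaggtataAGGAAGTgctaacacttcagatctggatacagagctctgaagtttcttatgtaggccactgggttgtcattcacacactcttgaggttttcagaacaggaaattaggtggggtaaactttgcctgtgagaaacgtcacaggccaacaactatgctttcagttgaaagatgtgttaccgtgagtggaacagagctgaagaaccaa
Trat1: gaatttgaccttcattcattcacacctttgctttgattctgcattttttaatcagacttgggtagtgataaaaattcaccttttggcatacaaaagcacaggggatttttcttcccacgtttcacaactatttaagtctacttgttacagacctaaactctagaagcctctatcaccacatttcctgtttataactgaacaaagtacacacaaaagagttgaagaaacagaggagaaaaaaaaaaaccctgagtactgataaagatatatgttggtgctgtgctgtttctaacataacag
The Lax1 window held 1 RUNX match, and the Txk window 1 ETS match. The Sit1 and Trat1 windows held none of these letters, which says nothing about the factors themselves. Of the 45 genes, 37 had a promoter in the table. The ETS letters were in 10 of these 37 (27%) and in 9.57% of 27018 promoters, and the NFAT letters in 9 (24.3%) and 23.6%. RUNX letters were in 1 of 37 (2.7%, against 5.37%), AP-1 letters in 1 (2.7%, against 7.94%) and FOXO letters in 3 (8.11%, against 3.55%). The ETS and NFAT letters share a core and can overlap. These shares are descriptions, and a match is not a binding site.

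In the branch from phospholipase C to NF-kB, members moved in opposite directions. Plcg1, the phospholipase, fell 2.41-fold against memory and 2.03-fold against regulatory cells, and Malt1, a protease on the way to NF-kB, fell 2.89-fold and 3.24-fold. Bcl10, its partner, read 5029.8 and 5829 in activated, 2694 and 2605 in regulatory and 2558 and 2342 in memory cells. It rose with log2 folds of 1.15 and 1.03 (SE 0.16 each, adjusted p = 0.0074 and 0.0098). Other probe sets of these genes did not all follow. Of 3 further Bcl10 probe sets, 2 were higher in activated cells too, and the third read 469 and 579 in activated against 1276 and 1088 in memory cells, and a further Malt1 probe set 710 and 779 against 313 and 232. With the mean of all its probe sets Bcl10 did not pass (adjusted p = 0.18 against memory and 0.29 against regulatory cells), and with single arrays left out it passed in 0 of 6 settings against memory (0.050 to 0.082) and 2 of 6 against regulatory cells. Vav1, an exchange factor for Rac, and Prkcq, the protein kinase C of the T cell synapse, did not pass, with log2 folds of 0.35 and -0.26 against memory.

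In the Ras and MAPK branch, Rasgrp1, the diacylglycerol-sensing Ras activator, read 1648 and 1623 in activated against 3833 and 3920.5 in regulatory and 3435 and 4213 in memory cells. It fell 2.33-fold against memory and 2.37-fold against regulatory cells. Sos1, another Ras activator, fell 1.61-fold and 1.67-fold. Map2k1, the MEK kinase that activates ERK, rose: it read 4276 and 4361 in activated, 2427 and 2180.4 in regulatory and 1542 and 2249.9 in memory cells. The rise was 2.32-fold over memory and 1.88-fold over regulatory cells (adjusted p = 0.015 and 0.033), and against regulatory cells it did not pass with quantile normalization (adjusted p = 0.070). With single arrays left out it passed in 1 and 2 of 6 settings. Map2k6, an activator of p38, fell against memory (log2 fold -1.45, SE 0.35, adjusted p = 0.032) and did not pass with quantile normalization (log2 fold -0.82, adjusted p = 0.11). With single arrays left out it passed in 1 of 6 settings, with log2 folds between -2.00 and -0.91.

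In the calcium branch 6 of 7 genes fell against memory and 3 of 7 against regulatory cells. Of the genes above the floor on all arrays, 32.5% and 31.5% were lower. Nfatc2, an NFAT factor of resting T cells, read 757 and 755 in activated, 1554 and 1538 in regulatory and 2397 and 2324 in memory cells, 3.12-fold and 2.04-fold lower in activated cells. Nfatc3 read 1594 and 1576, 3078 and 3063, and 4159.7 and 4039, 2.59-fold and 1.94-fold lower. For both genes, on these probe sets, the genotype log2 folds lay between 0.00 and 0.04, and the 3 populations did not overlap. A further Nfatc3 probe set read 405 and 389 in activated, 1672 and 1228 in regulatory and 821 and 1275 in memory cells. On it activated cells were lowest too, but regulatory and memory cells overlapped. Its genotype log2 folds were 0.06, 0.45 and -0.63 in activated, regulatory and memory cells. Nfatc1, which T cells induce on stimulation, read 2257 and 2321 in activated, 3343 and 3082 in regulatory and 3192 and 4569 in memory cells. Its fall against memory was near the threshold (adjusted p = 0.049, and 0.051 with both regulatory arrays left out, and past it in 1 of 6 settings with single arrays left out), and a further probe set read 1307 and 1274 in activated against 919 and 1108 in memory cells.

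Ppp3ca, a catalytic subunit of calcineurin, fell 2.82-fold and 2.92-fold, and its relative Ppp3cb 1.49-fold against memory. A second bright Ppp3cb probe set pointed up, with 2933 and 2919.8 in activated against 1614 and 1309 in memory cells. Stim1, the calcium sensor of the endoplasmic reticulum, fell 3.09-fold against memory (adjusted p = 0.022) and read 335 and 420.0 in activated against 973 and 603 in regulatory cells. Orai1, the channel pore that it opens, read 1921 and 1673, 1522 and 1746, and 1567 and 2675, with overlap between populations. Its other probe set read 1262 and 1401 in activated, 252 and 342 in regulatory and 329 and 441 in memory cells.

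Of the phosphatases and lipid kinases, 4 of 5 fell in each comparison, beside 32.5% and 31.5% of the genes above the floor on all arrays. Ptprc, which encodes the phosphatase CD45, read 18541.5 and 18522 in activated, 31882 and 30734 in regulatory and 41709 and 54939.6 in memory cells, 2.58-fold and 1.69-fold lower in activated cells. Dgka, a diacylglycerol kinase linked to T cell unresponsiveness, read 3589.8 and 3769 in activated, 13697 and 14016 in regulatory and 7826 and 13284 in memory cells. It was 3.77-fold lower than in regulatory cells (adjusted p = 0.0061) and 2.77-fold lower than in memory cells (adjusted p = 0.011). Both Dgka calls held in 2 of 6 settings with single arrays left out. Dgkz, another diacylglycerol kinase, fell by 0.85 and 0.76 on the log2 scale, and Ptpn22, a phosphatase that acts on Lck, fell 2.91-fold and 1.93-fold.

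Ptpn6, which encodes the inhibitory phosphatase SHP-1, rose against regulatory cells. It read 6942 and 7217 in activated, 3041 and 2705 in regulatory and 2872 and 4842 in memory cells, with log2 folds of 1.30 (SE 0.27, adjusted p = 0.021) over regulatory and 0.92 (SE 0.27, adjusted p = 0.053) over memory cells. On this probe set the activated arrays were above all others. The other Ptpn6 probe set read 1915 and 2112 in activated, 1532.5 and 1125 in regulatory and 1677 and 3035 in memory cells. Its log2 fold over memory was -0.17. With both regulatory arrays left out the brighter probe set passed against memory too (adjusted p = 0.035). With single arrays left out, the rise over regulatory cells passed in 2 of 6 settings, and the adjusted p against memory ran between 0.051 and 0.27.

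Among the ubiquitin ligases and related inhibitors, Cbl fell 3.25-fold and 3.70-fold, Ubash3a, which dampens receptor signalling, 1.88-fold and 1.63-fold, and Itch 1.67-fold against memory. Cblb, a ligase that sets the threshold for costimulation, overlapped between populations at 1183 to 2169, and its probe sets disagreed in direction. Rnf128, a ligase linked to anergy, was dim, with 255 and 278 in activated, 150.1 and 192 in regulatory and 244 and 311 in memory cells. It was 1.56-fold higher in activated than in regulatory cells (adjusted p = 0.028), in 0 of 6 settings with single arrays left out. Csk, the kinase that shuts Lck off, read 1473 and 1841 in activated, 4567 and 4992 in regulatory and 5187 and 5816 in memory cells, and fell 3.34-fold and 2.90-fold. Pag1, which anchors Csk at the membrane, fell 1.75-fold and 1.67-fold. Falls were found among activating components and among inhibitors.

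**Figure D3:**
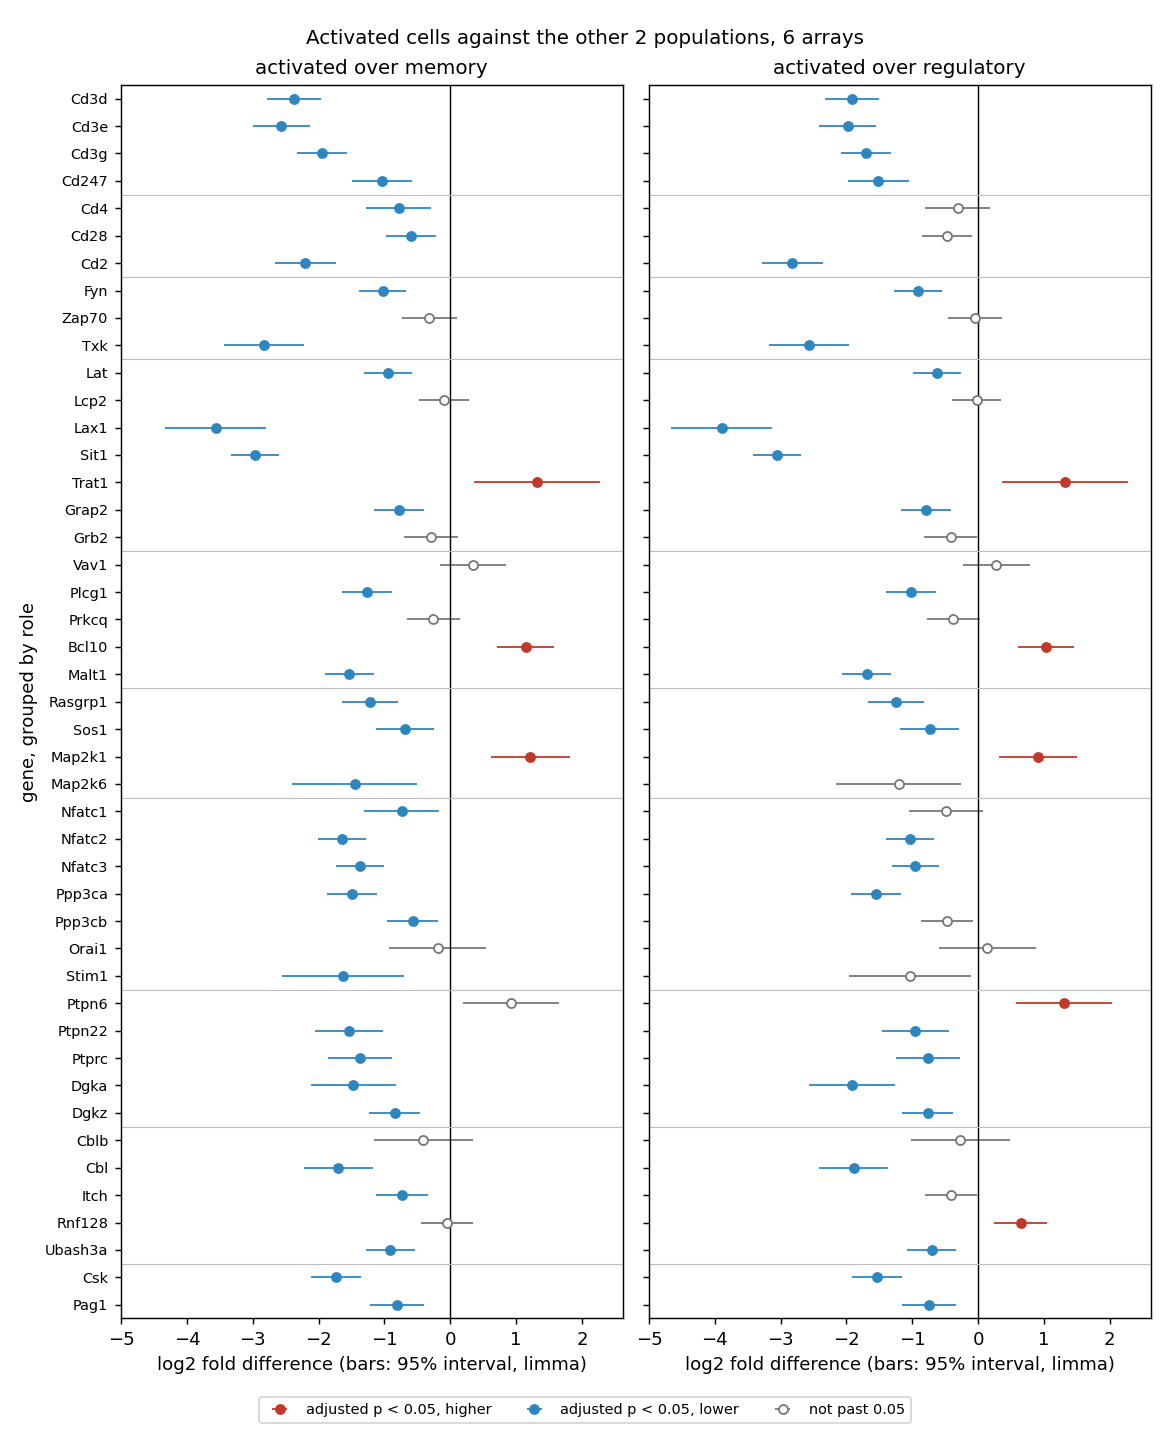
Log2 fold (x axis) of the 45 genes for activated over memory (left) and activated over regulatory cells (right), with 95% intervals from limma. Filled points passed an adjusted p of 0.05 (blue lower, red higher in activated cells); 33 and 26 are blue, 3 and 5 red.

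Other probe sets gave a measure of how far these values hold for whole genes. Of 42 further probe sets above the floor on all arrays, in 27 genes, 29 had the sign of the chosen one for activated over memory and 13 the opposite, and 33 and 9 for activated over regulatory cells. Among the genes called against memory, 8 of 19 with such a probe set had an opposite one: Bcl10, Malt1, Nfatc1, Ppp3cb, Ptprc, Cbl, Itch and Pag1. For some of these the opposite probe set differed little, such as Pag1 at 0.09 on the log2 scale. With the mean of all probe sets 29 genes were lower against memory and 27 against regulatory cells, beside 27.5% and 28.6% of all genes. The cause of the opposite signs was not tested.

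No gene of the list differed between regulatory and memory cells past the threshold in limma, nor did any of the 15808 genes (0% in each direction), although 3358 genes (21.2%) and 9 of the 45 had an unadjusted p under 0.05. The log2 folds of the 45 genes, regulatory over memory, ran from -0.70 for Rnf128 to 0.62 for Cd2, with a median of -0.12 against -0.01 for all genes. Both regulatory arrays lay below both memory arrays for 19 of 45 genes and above for 5, against 24% and 20.7% of all genes. The 19 included Cd3d, Cd3e, Cd4, Nfatc2, Nfatc3 and Ptprc, and the 5 included Cd2 and Cd247. Their intervals were wide: that of Cd3e was -1.01 to -0.16 (adjusted p = 0.15) and that of Cd2 0.16 to 1.08 (adjusted p = 0.16). Myeloid markers summed to 1693 and 1534 on the regulatory arrays and 6611 and 13280 on the memory arrays, and their part in these differences was not tested.

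A wider list of the pathway, chosen with earlier results known, held 69 measured genes that are not among the 45. Of these 32 fell and 10 rose against memory, and 30 fell and 12 rose against regulatory cells, shares of 46.4% and 14.5%, and of 43.5% and 17.4%. Beside the 27% lower and 17.4% higher of all genes against memory, and 26.5% and 18.1% against regulatory cells, the share of rises was at or below the background. Rasgrp2, a calcium-sensing activator of Rap, read 26.5 and 38.4 in activated cells, below the floor, against 1926 and 1461 in regulatory and 1187 and 852 in memory cells. It was at least 35.2-fold lower than in regulatory and at least 21.1-fold lower than in memory cells (adjusted p = 0.0018 each). Itpr2, a calcium release channel, was 12.2-fold lower than in memory cells, and Pik3cd, the lymphocyte phosphoinositide kinase, read 591 and 598 in activated against 4487 and 4786 in memory cells.

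Genes that restrain the Ras and MAPK branch did not move together. Spry1, an inhibitor of Ras signalling, read 2227 and 3361 in activated, 404 and 391.9 in regulatory and 262 and 522 in memory cells, 6.87-fold and 7.39-fold higher in activated than in regulatory and memory cells. Dusp4, a phosphatase of ERK, read 4358 and 4522, 1463 and 1349, and 497 and 737, 3.16-fold higher than in regulatory and 7.34-fold higher than in memory cells. Dusp6, another, was 5.45-fold higher than in regulatory cells and 1.81-fold higher than in memory cells. Dusp5, of the same phosphatase family, fell against regulatory cells (log2 fold -1.26, adjusted p = 0.017 in limma), and Dusp2 passed in neither comparison. Spry2 rose against regulatory cells (log2 fold 0.82, adjusted p = 0.027 in limma) and did not pass against memory (log2 fold -0.21). Spry2 was dim, with 91.4 and 86.2 in activated, 12.2 and 52.8 in regulatory and 117.4 and 89.8 in memory cells. The lower regulatory signal was raised to the floor of 47.6, which limits the fold and its spread. Cd81, a membrane organiser of lymphocyte receptors, was 5.46-fold higher than in memory cells.

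**Figure D4:**
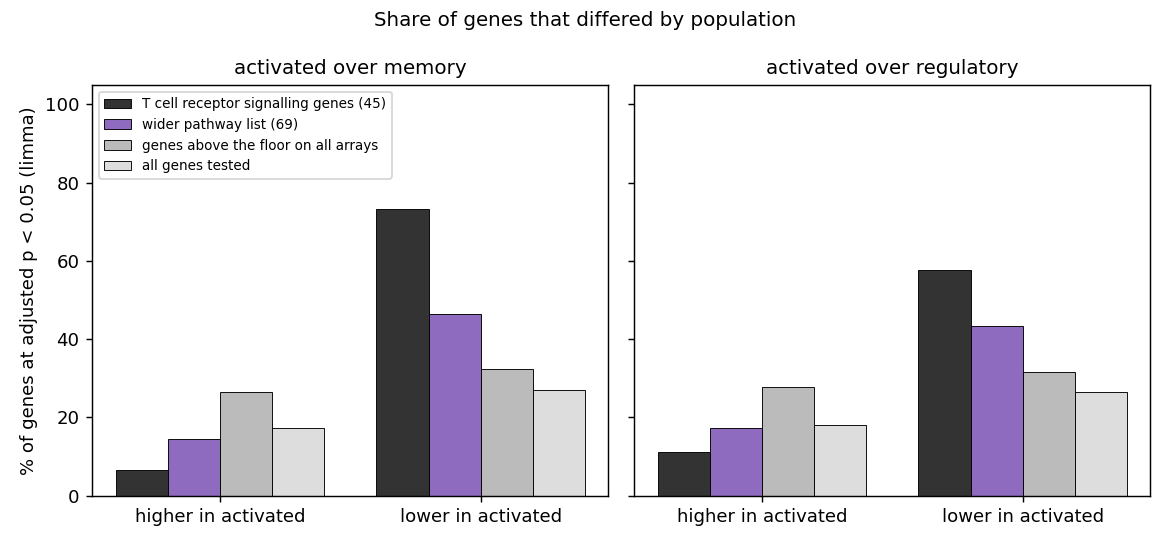
Share of genes at an adjusted p under 0.05 (limma), higher or lower in activated cells, for the 45 listed genes, the 69 wider pathway genes, the 9446 genes above the floor on all arrays and all 15808 genes. Lower calls make up 73.3% and 57.8% of the 45 listed genes, against 27% and 26.5% of all genes.

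Most signalling genes read close to the WT level on the Furin cKO arrays. With 1 array per group a genotype difference within a population has no replicate check and no p, and folds are Furin cKO over WT. At least 2-fold higher were 0 of 45 genes in activated cells (0.39% of all measured genes), 0 in regulatory cells (3.14%) and 1 in memory cells (5.62%). At least 2-fold lower were 1 of 45 in activated (0.372%), 0 in regulatory (2.12%) and 0 in memory cells (3.64%). Median log2 folds were 0.00, -0.01 and -0.12 in activated, regulatory and memory cells, against 0.00, -0.02 and -0.01 for all genes. Lower by any amount were 21 of 45 in activated, 25 in regulatory and 28 in memory cells, against 51%, 51.9% and 50.7% of all genes. Higher by any amount were 24, 20 and 17, against 48.9%, 48% and 49.2%. The spread of the 45 folds, as a median absolute deviation scaled to an SD, was 0.20, 0.16 and 0.35. That of the genes above the floor on all arrays was 0.19, 0.24 and 0.39.

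The gene past 2-fold in activated cells was Map2k6, at 89.0 on the Furin cKO array against 236 on the WT array, 2.65-fold lower. The signals are dim, and with a floor at percentile 60 the difference was below 2-fold (log2 fold -0.71). In regulatory cells it read 322 against 345 and in memory cells 328 against 479.6. The gene past 2-fold in memory cells was Trat1, at 4974 on the array labelled Furin cKO against 1873 on the WT array, 2.66-fold higher. Its other probe set read 1523 against 832.5, a log2 fold of 0.87. Trat1 read 3584 against 2603 in regulatory and 7882 against 7313 in activated cells, higher in all 3 populations, although its other probe set was lower in activated cells (1628 against 2062).

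Txk was lower on the array labelled Furin cKO of every population, with log2 folds of -0.35, -0.25 and -0.94 in activated, regulatory and memory cells. In memory cells this was 1169 against 2239.7, just short of 2-fold, and its direction rests on the memory label that the Furin signal goes against. Over the 3 populations limma gave a log2 fold of -0.51 (SE 0.18, adjusted p = 0.82, unadjusted p = 0.046), and -0.30 with the memory arrays left out (adjusted p = 0.94). Altogether 10 of 45 genes were lower in all 3 populations and 9 higher (22.2% and 20%), against 17% and 11.5% of all genes. With the memory arrays left out, 14 were lower and 13 higher in both other populations (31.1% and 28.9%), against 28.1% and 22.4% of all genes. The genes lower in all 3 populations were Cd3e, Fyn, Zap70, Txk, Plcg1, Map2k6, Ppp3ca, Dgka, Rnf128 and Csk. Of these, Rnf128 was higher in activated cells with quantile normalization (log2 fold 0.32). The genes higher in all 3 populations were Cd3g, Lat, Sit1, Trat1, Grap2, Malt1, Sos1, Nfatc2 and Nfatc3, several of them by under 0.05 on the log2 scale. Both lists hold for the chosen probe sets, and other bright ones did not all follow. A further Fyn probe set had log2 folds of 0.13, -0.39 and 0.23 in activated, regulatory and memory cells. Further ones of Zap70 (-0.43, 0.13 and 0.16) and Rnf128 (0.38, 0.03 and -0.16) also changed sign. Further probe sets of Malt1 and Nfatc3 had -0.38 and -0.63 in memory cells. In limma 0 of 45 genes and 0 of 15808 genes (0%) passed for genotype, with 1 and 450 at an unadjusted p under 0.05. Behind that p stands the spread of the genotype difference over the 3 populations, and the labels do not give the spread over animals.

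In memory cells the largest differences after Trat1 and Txk were lower signals on the array labelled Furin cKO. Orai1 gave 1567 against 2675, Dgka 7826 against 13284, Ptpn6 2872 against 4842 and Lax1 696 against 1089. Their log2 folds were -0.77, -0.76, -0.75 and -0.65. The calcium genes as a group did not share this, with a median of -0.03, 4 lower and 3 higher. On the same pair of arrays Furin itself read 2203 against 647. Summed markers of myeloid and dendritic cells were 6611 against 13280, those of B cells 3657 against 2360.1, of granulocytes 6385 against 1991, of plasma cells 18235.5 against 3227, of gamma delta T cells 549 against 2899, and signalling genes of B and myeloid cells such as Blnk and Plcg2 2120.2 against 2853. The beta-actin 3' to 5' ratio was 1.56 against 1.93. The part of other cells and of RNA quality in these folds was not tested. The CD3 chains read 38862 against 32691 for Cd3d, 21049 against 18647 for Cd3g, 8419 against 8712 for Cd3e and 4398 against 4593 for Cd247, all within 1.19-fold.

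In regulatory cells the largest difference was Stim1, at 973 in Furin cKO against 603 in WT, 1.61-fold higher, but its other probe set read 413.9 against 456. Sos1 followed, at 1526 against 1055. In the wider list 1 of 69 genes was past 2-fold in a population, lower in memory cells (1.45%, against 3.64% of all measured genes). At least 2-fold lower in activated and regulatory cells were 0.372% and 2.12% of all genes. At least 2-fold higher were 0.39%, 3.14% and 5.62% of all genes in activated, regulatory and memory cells. Nedd4, a ubiquitin ligase, read 592 against 1208 in memory cells, 2.04-fold lower, and 252 against 157 in activated cells.

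**Figure D5:**
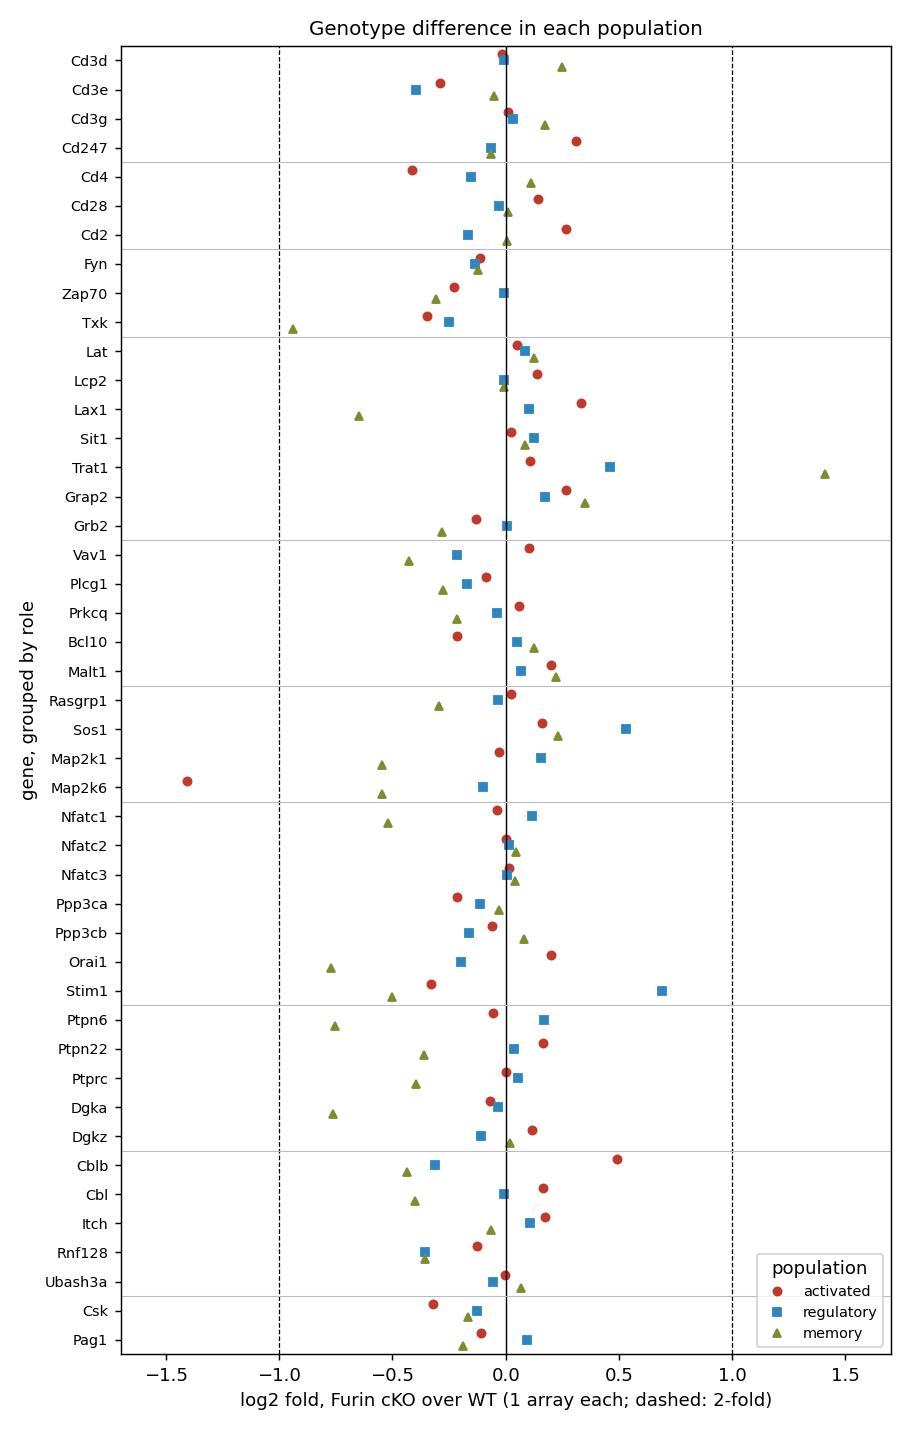
Log2 fold of Furin cKO over WT for the 45 genes in activated (circles), regulatory (squares) and memory cells (triangles), 1 array per group, with dashed lines at 2-fold. Map2k6 in activated cells and Trat1 in memory cells lie outside the lines, and memory folds spread most.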

How the data were processed

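The authors deposited array intensities on a linear scale. MAS5 is the tool named, per the submitters' processing notes, without version or settings. RNA was extracted with Trizol and labelled from 5 µg, per the labels' protocols. Each deposited array has a mean of 500 after trimming 2% of probe sets at each end. Of 45101 probe sets, 64 controls were left out, and 34945 carried 1 gene symbol in the platform annotation, giving 18193 genes. The Entrez identifiers of 34741 of these probe sets matched RefSeq (GRCm38.p6), used for names, chromosomes and promoters.

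Signals below the pooled 40th percentile (47.6) were raised to it before log2. Population and genotype were fitted with limma 3.58.1 in R 4.3.3 on 15808 genes, with 2 residual degrees of freedom, empirical Bayes moderation, Benjamini-Hochberg adjustment and 95% intervals, and the fit was tested on simulated data. Genotype folds within a population have no test. Alternatives were other normalizations, floors at the 20th and 60th percentiles or none (log2 of signal + 1, since some signals are 0), the mean of all probe sets, a variance trend, no genotype term and arrays left out.

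The genes, the wider list and the markers were chosen with earlier results of these data known. Named with full values are genes past 2-fold by genotype, the 6 largest called changes each way per population comparison, CD3 chains, Cd4, Cd28, Zap70, Lat, Lcp2, Nfat genes, and genes with 1 genotype direction in all populations at 0.2 or more. Of the wider list, genes past 2-fold and the 3 largest called changes each way are named; other genes and probe sets were added to describe roles after their values were seen.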

Additional observations from a re-analysis of the deposited data

Results flagged for a closer look

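Genotype folds of opposite direction in different populations were looked at where both reached 0.3 on the log2 scale. With 1 array per group each fold is 1 Furin cKO array over 1 WT array, and the difference between populations was not tested. Stim1, the calcium sensor, had log2 folds, Furin cKO over WT, of -0.33 in activated, 0.69 in regulatory and -0.50 in memory cells, but its other probe set gave 0.00, -0.14 and 0.14. Cblb, the ubiquitin ligase, had 0.49 in activated, -0.31 in regulatory and -0.43 in memory cells. Both other Cblb probe sets had the same signs in activated (0.45 and 0.33) and memory cells (-0.42 and -0.43), but not in regulatory cells (0.21 and 0.01). Lax1, the inhibitory adaptor, had 0.33 in activated cells, where it was close to the floor, and -0.65 in memory cells.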

How the results depend on the processing

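Direction and side of the threshold held for the falls of the CD3 chains, Cd2, Lax1, Sit1, Txk, Nfatc2 and Nfatc3 in activated cells under every alternative except single arrays left out. The number of genes higher against regulatory cells was 5, and 3 with quantile normalization, beside 18.1% and 23.2% of all genes. It was 2 with a floor at percentile 20, 1 with no floor and 2 with the mean of all probe sets (12.7%, 10.8% and 14%). In the same order of settings 33, 29, 26, 23 and 29 genes were lower against memory (27%, 20.3%, 23.7%, 21.5% and 27.5%). Lower against regulatory cells were 26, 27, 21, 18 and 27 (26.5%, 18.7%, 24.2%, 22.1% and 28.6%). With a floor at percentile 60 the lower counts were 33 and 32 (32.7% and 31.4%). The number at least 2-fold lower by genotype in activated cells was 1, and 0 with a floor at percentile 60. With single arrays left out, 1 residual degree of freedom remained and the lone array of its population was assumed to vary like the others. Then 0 to 1 genes were higher and 11 to 23 lower against memory cells, and 0 to 4 higher and 0 to 25 lower against regulatory cells. The median genotype fold in memory cells was -0.12 and ran between -0.19 and -0.05 on the log2 scale, and no called direction reversed among the named genes under any of these settings. Each group was 1 array, so there were no replicates to pair within a population. Across populations the model matched arrays by genotype only. Both choices to leave out all regulatory or all memory arrays were made after seeing the data. Signals near the floor limit Lax1 and Map2k6 in activated cells.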
